A study of Mus musculus with 8 samples.

Results

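Potassium channel genes were followed in the mouse pituitary through all protein-coding genes whose symbol begins with Kcn, leaving out the two-pore-domain Kcnk genes and Kcnj8. The count table held 94 protein-coding Kcn genes, 15 of which were left out, so that 79 of its 54854 genes were members. Of these, 55 reached a mean of at least 1 CPM (counts per 1000000 counts of a library) in the control libraries and are described in full. The other 24 stayed below that level.

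Bulk RNA sequencing was done on entire pituitaries taken at 5 weeks of age from animals of the C57BL/6N strain. In the anti-CD115 group (n = 4), the dam had been injected intraperitoneally with 3 mg of the CSF1R-blocking antibody AFS98 at embryonic day 6.5. The pups then received it 3 times, as 100 µg on day 2 after birth, 150 µg on day 14 and 200 µg at an age of 4 weeks. The isotype control group (n = 4) followed the same schedule with rat IgG2a of clone 2A3. CD115, or CSF1R, is the growth factor receptor on which most tissue macrophages depend, and the series was designed to ask how the pituitary transcriptome changes once macrophages are depleted. Replicate 1 was a female and replicates 2 to 4 were males in each group. How many dams or litters were used is not given in the sources used here, so litter and treatment cannot be told apart.

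Potassium channels let potassium leave the cell and so pull the membrane potential away from the threshold for firing. Endocrine cells of the anterior pituitary fire action potentials spontaneously, and the potassium channels they open set how often they fire, how long each calcium transient lasts and thereby how much hormone is released. Hypothalamic signals act partly through these channels: dopamine and somatostatin receptors open G protein-gated inward rectifiers. Voltage-gated pores repolarise the cell after a spike, calcium-activated pores respond to the calcium that a spike lets in, and inward rectifiers hold the resting potential. Silent subunits form no working channel alone and modify other voltage-gated pores, while auxiliary subunits bind the pore from the side.

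What the pore genes share is the selectivity filter, the short stretch of the pore that lets potassium pass and holds back sodium. Its codons were searched for in frame, on the coding strand, in the longest complete coding sequence of each gene in GENCODE M21. The motif NCNNTNGGNTNNGGN, in which N is any base, was found in 41 of the 55 described genes, against 2.86% of 21782 protein-coding genes. It was found in 8 of 8 calcium- or sodium-activated genes, 9 of 9 inward rectifiers, 4 of 4 silent subunits, 20 of 26 voltage-gated genes and 0 of 8 auxiliary genes. A shorter form, NTNGGNTTNGGN, was present in 7 of 7 described Kcnh genes, of which 1, Kcnh5, also held the longer form, and in 3.8% of all protein-coding genes. All 47 described pore-family genes held at least 1 of these motifs. The matched codons of 5 genes from 3 of the functional classes are given 5′ to 3′ on the gene's own strand, because they are the feature that defines the pores whose levels follow. Capitals mark the match, lower case the 15 bases on either side, and positions are in GRCm38.
Kcnh2, exon 7 of 15, chr5:24325540-24325581, minus strand: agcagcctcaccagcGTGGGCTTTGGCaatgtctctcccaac
Kcna5, exon 1 of 1, chr6:126533730-126533774, minus strand: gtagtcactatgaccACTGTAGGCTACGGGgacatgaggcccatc
Kcnj3, exon 2 of 4, chr2:55437612-55437656, plus strand: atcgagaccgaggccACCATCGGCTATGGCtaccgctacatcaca
Kcnma1, exon 8 of 31, chr14:23528398-23528442, minus strand: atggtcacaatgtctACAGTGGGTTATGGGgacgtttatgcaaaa
Kcnn3, exon 4 of 8, chr3:89645497-89645541, plus strand: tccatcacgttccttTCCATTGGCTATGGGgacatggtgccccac
The lines show coding sequence of the reference, not of the animals, and a match describes letters only.

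Libraries held 23289819 to 36218096 counts, so that 3 counts, the floor for a gene without reads, were worth 0.0828 to 0.129 CPM. Levels per library below are CPM after TMM scaling. All 12 macrophage markers of a fixed list fell under anti-CD115 by edgeR's quasi-likelihood test at an adjusted p under 0.05, and their summed level was 198 to 297 CPM in the controls and 12.3 to 46.8 CPM in the treated libraries. None of the 55 tested genes in the 13 other cell type lists passed that test for treatment, as 0.869% of all genes tested did. By edgeR 9 of them (16.4%) had an unadjusted p under 0.05, against 10.3% of all genes, 8 higher and 1 lower in the treated libraries. This number moved both ways, from 7 to 17, when 1 library was dropped from the fit. It fell to 7 of 56 tested genes if control replicate 4 was dropped, and to 7 of 57 if treated replicate 2 was. Dropping control replicate 2 or 3 raised it to 16 or 17 of 55, and dropping treated replicate 3 raised it to 14 of 57. In bulk tissue, fewer cells of a type and less RNA per cell cannot be told apart. A pair of libraries stood apart. The anti-CD115 female, replicate 1, carried transcripts of forebrain neurons. A list of 10 such genes was chosen after the libraries had been seen. Its sum was 362 CPM in replicate 1 and 65.2 to 112 CPM in the other 7 libraries. Much of that sum was Camk2a, a kinase abundant in excitatory neurons, at 220 CPM there against at most 27.8 CPM elsewhere. Replicate 1 was the highest library for 8 of the 10 genes, and 6 of the 10 passed the filter on low counts. The fixed list of 6 neuron markers summed to 671 CPM in replicate 1 and 487 to 589 CPM in the other 7 libraries. Replicate 1 was the highest library for 3 of these 6. That library was the highest of all 8 for 16 of the 55 described channel genes (29.1%), against 13.1% of the 17723 genes tested. Isotype control replicate 3, a male, was the lowest of all 8 for 19 of the 55 (34.5%), against 20.7% of all genes tested.

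Voltage-gated channels had the highest summed level. Per unit of gene length, in the authors' deposited FPKM (fragments scaled to gene length and library size), the 26 described voltage-gated genes had control means that summed to 120.1 FPKM. The 8 auxiliary genes summed to 43.9 FPKM, the 9 inward rectifiers to 23.7, the 8 calcium- or sodium-activated genes to 11.2 and the 4 silent subunits to 4.50. Within the voltage-gated class control means ran from 0.0815 FPKM for Kcnq3 to 30.8 FPKM for Kcnh2.

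**Figure D1:**
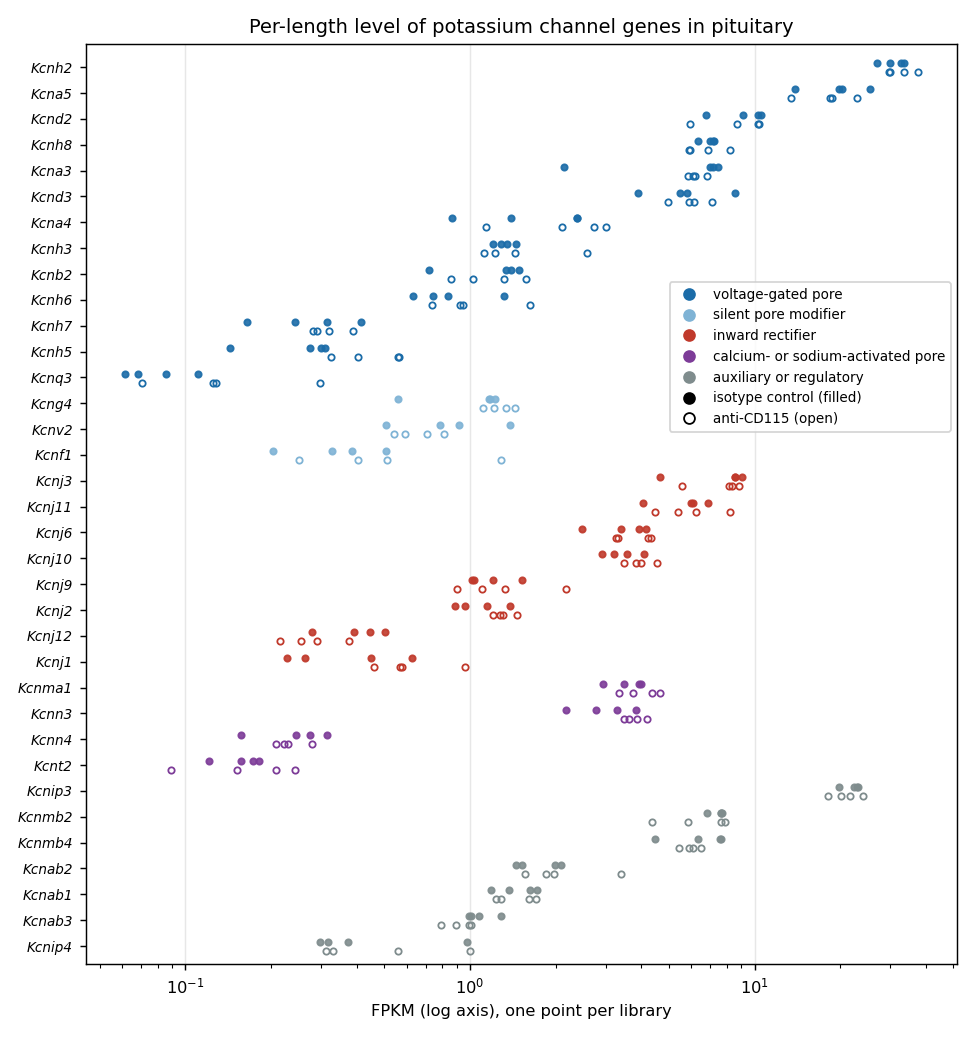
Deposited FPKM (log axis) of the 35 described potassium channel genes named in the text, one point per library, filled for isotype control and open for anti-CD115, coloured by functional class and ordered by control mean within the class. Kcnh2, Kcna5 and Kcnip3 lie furthest to the right, and in most genes the filled and open points overlap.

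Kcnh2 had the highest mean. It encodes the ether-a-go-go related channel, a pore that recovers from inactivation during repolarisation and holds a current at negative potentials. In FPKM its control mean was 30.8 ± 2.98 (SD, n = 4). In CPM, control replicates 1 to 4 had 131, 145, 166 and 159, and the anti-CD115 libraries had 145, 146, 183 and 162. The ranges overlapped, with the control female lowest and a treated male highest. Next in order came Kcnip3, at 22.1 ± 1.51 FPKM in the controls (SD, n = 4), and Kcna5, at 19.8 ± 4.71 FPKM (SD, n = 4), whose ranges overlapped. Kcnip3 encodes a calcium-binding protein that attaches to Kcnd pores and is also known as a calcium-dependent transcriptional repressor. Its controls had 70.8, 81.4, 83.4 and 79.8 CPM and its treated libraries 77.4, 71.3, 86.0 and 64.2 CPM. Kcna5 encodes a delayed rectifier of the shaker family. In its case the controls had 39.9, 57.0, 58.8 and 72.9 CPM and the treated libraries 38.7, 53.8, 52.8 and 65.8 CPM, the female being the lowest library of each group.

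The controls of Kcnh2 lay above those of every other member, and those of Kcna5 above those of Kcnd2, the next gene; from Kcnd2 down to the tenth gene, Kcnmb4, neighbours in the order overlapped. Kcnd2, which encodes a pore of the fast A-type current that Kcnip proteins accompany, had 9.15 ± 1.71 FPKM (SD, n = 4). Its controls had 47.0, 53.0, 35.4 and 54.5 CPM and its treated libraries 45.0, 30.8, 53.3 and 53.6 CPM. Control replicate 3 and anti-CD115 replicate 2 were the low libraries of their groups.

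Kcnh8, an ether-a-go-go-like pore, had 6.91 ± 0.410 FPKM (SD, n = 4). Its controls had 33.0, 31.9, 29.2 and 32.8 CPM and its treated libraries 26.9, 27.0, 31.5 and 37.4 CPM, so that the treated libraries spread on both sides of the controls.

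Among the inward rectifiers Kcnj3, a subunit of the G protein-gated channel, had the highest level, at 7.70 ± 2.03 FPKM (SD, n = 4). Its controls had 47.4, 44.6, 24.7 and 44.9 CPM and its treated libraries 42.7, 43.7, 46.4 and 29.2 CPM. Control replicate 3 and anti-CD115 replicate 4 fell well below the other libraries, which lay close together. In the annotation 31.1% of the exon bases of Kcnj3 also lie in the opposite-strand gene Gm26794, and whether reads were counted by strand is not stated. The partner subunits of the same channel family, Kcnj6 and Kcnj9, had 3.49 ± 0.745 and 1.19 ± 0.233 FPKM (SD, n = 4 each). Kcnj11, the pore of the ATP-sensitive channel, had 5.74 ± 1.19 FPKM (SD, n = 4).

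Of the calcium-activated pores, Kcnma1, the large-conductance channel that shapes bursting in pituitary cells, had 3.58 ± 0.494 FPKM (SD, n = 4) and Kcnn3, a small-conductance channel opened by calmodulin-bound calcium, had 3.02 ± 0.715 FPKM (SD, n = 4). These values overlapped. Kcnma1's controls had 59.3, 66.8, 50.4 and 68.2 CPM, and its treated libraries had 63.8, 56.8, 74.5 and 79.3 CPM, overlapping ranges with control replicate 3 lowest. Auxiliary subunits of the Kcnma1 channel had higher FPKM, with every control of both above every control of Kcnma1. In CPM the order was the reverse. The order in FPKM depends on the annotated gene length, 16976 bases for Kcnma1 against 3128 for Kcnmb2 and 3324 for Kcnmb4. Kcnmb2 had 7.43 ± 0.423 FPKM (SD, n = 4) and Kcnmb4 had 6.50 ± 1.47 FPKM (SD, n = 4). Kcnmb2's controls had 23.9, 24.1, 21.6 and 24.0 CPM, and its treated libraries had 18.4, 13.7, 23.9 and 24.7 CPM, of which replicates 1 and 2 were below every control. Kcnmb4's controls had 15, 21, 25.7 and 25.4 CPM, and its treated libraries had 18.1, 21.7, 20.3 and 19.6 CPM, all inside the control range. For Kcnmb4, 20.8% of exon bases also lie in the antisense gene Kcnmb4os2, which had a control mean of 10.2 CPM, and 10.7% in Kcnmb4os1.

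Depletion of macrophages was accompanied by no change in any potassium channel gene that passed the test. Of the 55 described genes, 0 rose and 0 fell by edgeR's quasi-likelihood test at an adjusted p under 0.05, where 0.869% of all 17723 genes tested were called; the smallest adjusted p among them was 0.336. At an unadjusted p under 0.05 there were 3 (5.45%), Kcnh5, Kcnj1 and Kcnn3, against 10.3% of all genes tested. DESeq2 called 0 of the 55, against 1.51% of all genes. For 47 of the 55 genes the 95% interval of the treatment difference lay within 1 on the log2 scale, that is within a doubling or halving, and for 22 it lay within 0.5.

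**Figure D2:**
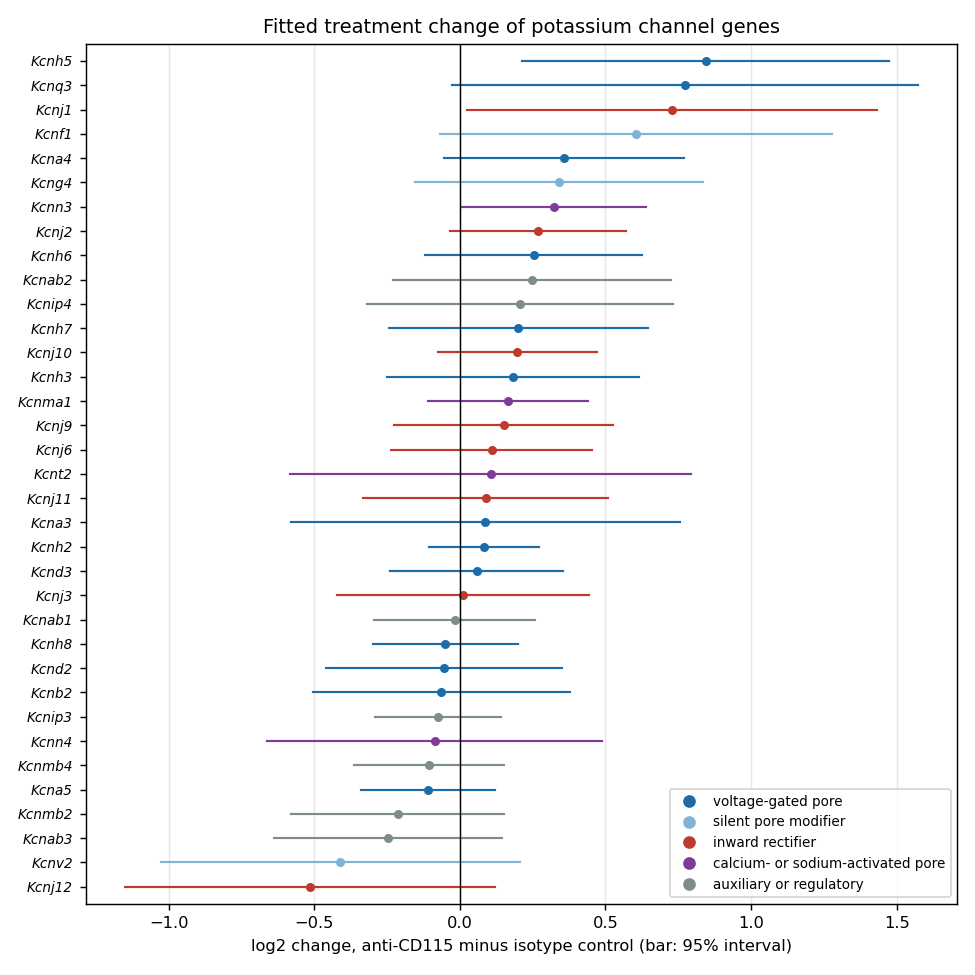
Fitted log2 change (anti-CD115 minus isotype control, edgeR with sex as a term) of the same 35 described genes with its 95% interval, coloured by functional class. Estimates run from -0.51 for Kcnj12 to 0.84 for Kcnh5, and the intervals of all but 3 genes (Kcnh5, Kcnj1 and Kcnn3) include 0.

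The fitted changes leaned upward without passing the test. In the treatment fit 38 of the 55 genes (69.1%) were above 0, against 50.9% of all genes tested, and their median log2 change was 0.10 against 0.00 over all genes. Without isotype control replicate 3 the count was 31 of 55 (56.4%) against 51.7% of all genes, and the median fell to 0.04. Without isotype control replicate 2 it was 43 of 55 (78.2%) with a median of 0.16, and without anti-CD115 replicate 1 it was 37 of 55 (67.3%) with a median of 0.10. Leaving out any other single library gave 36 to 40. When either female is left out, the sex term fits the remaining female and the males alone set the treatment difference. Such a fit is nearly the one in males alone (37 of 55, median 0.10).

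Most markers of other cell types lay above 0 as well. In the lists other than macrophage 43 of 55 tested genes (78.2%) did, with a median log2 change of 0.17. Without isotype control replicate 4 it was 36 of 56, with a median of 0.12. All 6 mural cell markers were above 0, with a median of 0.47 and a summed level of 188 to 296 CPM in the controls and 254 to 387 CPM in the treated libraries. All 5 endothelial markers were above 0, with a median of 0.28 and sums of 287 to 425 and 424 to 478 CPM. Of the 6 markers of pituicytes and glia 5 were above 0, with a median of 0.25 and sums of 85.8 to 219 and 168 to 256 CPM. The sums overlapped between groups in each of these 3 lists, and isotype control replicate 4 was the lowest library in each. Some lists did not lean upward. Of the fibroblast markers 2 of 5 were above 0 (median -0.11), of the somatotroph and lactotroph markers 1 of 3 each, and of the tested T cell markers 1 of 2. The part of any of these cell types in the channel genes' changes was not tested.

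By class, the median log2 change was 0.09 for the 26 voltage-gated genes, 18 of which lay above 0. For the 9 inward rectifiers it was 0.15, with 8 above 0, and for the 8 calcium- or sodium-activated genes 0.10, with 6 above 0. The 4 silent subunits had a median of 0.31, with 3 above 0, and the 8 auxiliary genes one of -0.05, with 3 above 0. No gene in any class passed the adjusted threshold in edgeR. Single libraries weighed on these medians. Without anti-CD115 replicate 1 the silent subunits had 0.17, and the auxiliary genes -0.09 with 1 of 8 above 0; without the control female the values were the same to 2 decimals, and without anti-CD115 replicate 4 the silent subunits had 0.15. Without isotype control replicate 3 the voltage-gated genes had 0.02 with 14 above 0, and 5 inward rectifiers were above 0, while without isotype control replicate 2 the voltage-gated genes had 0.17 and the auxiliary genes -0.02. The calcium- or sodium-activated genes had 0.04 without anti-CD115 replicate 3 and 0.06 without isotype control replicate 4.

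The genes with the highest FPKM, Kcnh2, Kcnip3 and Kcna5, had narrow intervals. The log2 change of Kcnh2 was 0.08 (95% interval -0.11 to 0.27, edgeR adjusted p = 0.784). Kcnip3 had -0.08 (-0.29 to 0.14, edgeR adjusted p = 0.832) and Kcna5 had -0.11 (-0.34 to 0.12, edgeR adjusted p = 0.764). Kcnma1 had 0.16 (-0.11 to 0.44, edgeR adjusted p = 0.69). For Kcnj3 the interval was wider, -0.42 to 0.44 around 0.01 (edgeR adjusted p = 0.991). So it was for Kcnd2, -0.46 to 0.35 around -0.06 (edgeR adjusted p = 0.948), and for Kcnmb2, -0.58 to 0.15 around -0.21 (edgeR adjusted p = 0.699). The sign of some of these small estimates rested on 1 library: Kcnj3 became -0.16 without isotype control replicate 3, which also brought Kcnma1 to 0.07, and Kcnip3 became 0.0020 without anti-CD115 replicate 4.

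Among the 55 described genes only Kcnh5 had every treated library above every control, as 2.47% of all genes tested did, and 0 described genes had every treated library below every control, as 3.29% of all genes tested did. Kcnh5 encodes an ether-a-go-go pore best known from the brain. Its controls had 1.22, 1.12, 0.592 and 1.26 CPM and its treated libraries 2.28, 2.28, 1.32 and 1.64 CPM. The groups were apart by a narrow margin, between the highest control and the treated replicate 3. Its log2 change was 0.84 ± 0.29 (SE; edgeR, unadjusted p = 0.0134, adjusted p = 0.336), and 0.65 without isotype control replicate 3, its lowest library.

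Kcnj1 encodes an inward rectifier best known from the kidney tubule. It had 0.881, 1.5, 0.770 and 2.10 CPM in the controls and 1.54, 1.93, 3.23 and 1.89 CPM in the treated libraries, and the groups overlapped through control replicate 4. Its log2 change was 0.73 ± 0.32 (SE; edgeR adjusted p = 0.472). Kcnn3 had 34.6, 40.4, 23.1 and 29.1 CPM in the controls and 43.9, 38.0, 36.6 and 40.5 CPM in the treated libraries. Control replicates 3 and 4 were its low libraries, and control replicate 2 lay within the treated range. Its log2 change was 0.32 ± 0.14 (SE; edgeR adjusted p = 0.481). Without isotype control replicate 3 it was 0.20, and that of Kcnj1 was 0.50.

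The lowest estimates were those of Kcnj12, Kcnv2 and Kcnab3. Kcnj12, a strong inward rectifier, had 1.39, 1.08, 1.24 and 0.768 CPM in the controls and 0.596, 1.03, 0.704 and 0.798 CPM in the treated libraries, overlapping ranges with a log2 change of -0.51 ± 0.29 (SE; edgeR adjusted p = 0.579). Without anti-CD115 replicate 1, its lowest library, it was -0.29, as it was without the control female. Kcnv2, a silent subunit known from photoreceptors, had 2.60, 4.02, 4.77 and 7.12 CPM in the controls and 4.17, 3.03, 3.64 and 2.77 CPM in the treated libraries. Its controls spread more widely than its treated libraries and enclosed them. Its log2 change was -0.41 ± 0.28 (SE; edgeR adjusted p = 0.654). Leaving out isotype control replicate 4, its highest library, gave -0.16 (edgeR adjusted p = 0.905), and leaving out anti-CD115 replicate 1 or the control female gave -0.74 (edgeR adjusted p = 0.412 and 0.414). Kcnab3, a cytoplasmic subunit of Kcna channels, had 2.90, 3.70, 3.14 and 2.86 CPM in the controls and 2.91, 2.85, 2.58 and 2.27 CPM in the treated libraries, and its log2 change was -0.25 ± 0.18 (SE; edgeR adjusted p = 0.674). Its treated replicates 2 to 4 lay below the lowest control by small margins, and without isotype control replicate 2 the change was -0.16.

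Channels known from macrophages or glia were also measured beside the macrophage markers. Kcnn4, the intermediate-conductance calcium-activated pore of blood cells, had 1.26, 1.61, 1.42 and 0.803 CPM in the controls and 1.44, 1.07, 1.14 and 1.18 CPM in the treated libraries. Kcna3, a shaker-family pore studied in T cells and microglia, had 14.2, 13.7, 4.14 and 13.3 CPM in the controls and 11.1, 13.0, 11.9 and 11.6 CPM in the treated libraries. Kcnj2, an inward rectifier found in macrophages and many excitable cells, had 7.60, 6.29, 5.30 and 4.85 CPM in the controls and 8.02, 6.96, 6.60 and 7.14 CPM in the treated libraries. In all 3 genes the groups overlapped, and in Kcna3 control replicate 3 alone was low.

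Their log2 changes were -0.09 for Kcnn4 (95% interval -0.66 to 0.49, edgeR adjusted p = 0.941), 0.09 for Kcna3 (-0.58 to 0.76, edgeR adjusted p = 0.95) and 0.27 for Kcnj2 (-0.03 to 0.57, edgeR adjusted p = 0.536). Without isotype control replicate 3 the estimate for Kcna3 was -0.21, and without isotype control replicate 2 that for Kcnn4 was 0.066. The 12 macrophage markers had a median log2 change of -2.88, and the smallest fall among them was that of Cd68, -2.30. No interval of these channel genes reached that far. Markers of T cells, where Kcna3 is also known, summed to 1.55 to 3.49 CPM in the controls and 2.53 to 2.87 CPM in the treated libraries, and 2 of the 5 listed passed the filter on low counts.

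**Figure D3:**
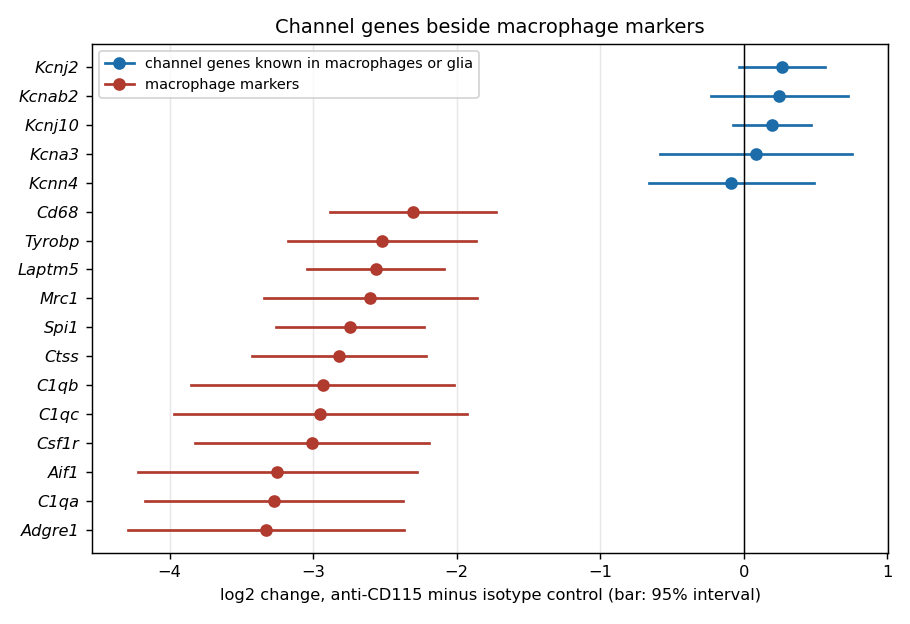
Fitted log2 change (anti-CD115 minus isotype control, edgeR) with 95% intervals for 5 channel genes known in macrophages or glia (blue) and 12 macrophage markers (red). The channel genes lie between -0.09 and 0.27, whereas every marker lies at or below -2.30.

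Kcnj10, an inward rectifier known from glial cells, had 17.5, 22.2, 16.0 and 19.4 CPM in the controls. Its treated libraries had 20.8, 18.8, 24.7 and 21.6 CPM. The log2 change was 0.20 (95% interval -0.08 to 0.47, edgeR adjusted p = 0.627), and it was 0.12 without isotype control replicate 3. The ranges overlapped. Kcnab2, a cytoplasmic subunit of Kcna channels, had 8.56, 8.11, 11.8 and 11.1 CPM in the controls and 19.1, 8.71, 11.0 and 10.3 CPM in the treated libraries. Its treated group was set apart by the female alone. Its log2 change of 0.25 (-0.23 to 0.73, edgeR adjusted p = 0.738) became -0.05 without that library or without the control female. Either way the males alone set the difference.

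Anti-CD115 replicate 1, the library with forebrain transcripts, was the highest of the 8 in further channel genes that neurons use. Kcnq3, a subunit of the muscarine-sensitive current, had 1.01, 1.26, 0.918 and 1.64 CPM in the controls and 4.38, 1.03, 1.85 and 1.89 CPM in the treated libraries. Kcnf1, a silent subunit, had 2.43, 1.57, 1.86 and 0.978 CPM in the controls and 6.17, 2.46, 1.2 and 1.93 CPM in the treated libraries. In each gene the remaining treated libraries overlapped the controls. The log2 change of Kcnq3 was 0.77 ± 0.36 (SE; edgeR adjusted p = 0.505) and that of Kcnf1 0.60 ± 0.30 (SE; edgeR adjusted p = 0.533). Without replicate 1 each was 0.33, as it was in males alone.

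Kcnh3, an ether-a-go-go-like pore of the forebrain, had 7.43, 8.39, 7.87 and 6.98 CPM in the controls and 14.9, 8.28, 7.07 and 6.47 CPM in the treated libraries. It was high in replicate 1 only, and its fitted change of 0.18 became -0.09 without that library, and likewise without the control female. These genes were chosen for display after their values had been seen. The part that forebrain RNA had in these levels was not tested.

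**Figure D4:**
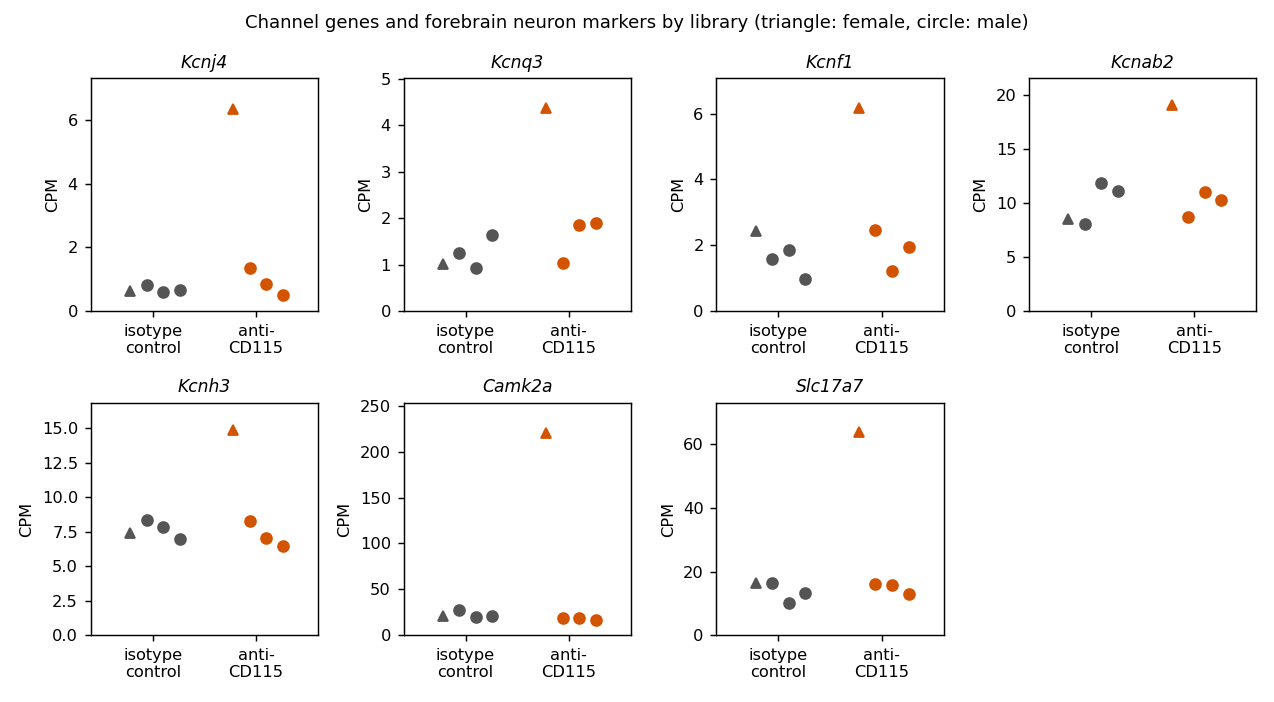
TMM-normalised CPM per library for 5 channel genes and the forebrain markers Camk2a and Slc17a7, by treatment group, with triangles for females and circles for males. The anti-CD115 triangle, replicate 1, lies above the other 7 in each panel, for example at 4.38 CPM for Kcnq3 and 14.9 CPM for Kcnh3.

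Sex was compared in the same fit, with 2 females against 6 males and 1 female per treatment group. Kcnip4, an auxiliary subunit of Kcnd channels, was higher in females: it had 3.57 CPM in the control female and 3.64 CPM in the treated female, against 1.15, 1.1 and 1.36 CPM in control males and 2.03, 1.2 and 1.13 CPM in treated males. Both females lay above every male, and the log2 difference, female minus male, was 1.44 ± 0.25 (SE; edgeR adjusted p = 0.0364). It was 1 of 55 described genes called for sex, against 0.491% of all genes tested. Kcnip4 had 27 to 104 counts per library. In the annotation 4.63% of its exon bases also lie in 5730480H06Rik and 2.73% in Gm20700, both on the opposite strand. The call was lost without any 1 of 7 libraries, the exception being anti-CD115 replicate 2: the log2 difference stayed between 1.32 and 1.57, with edgeR adjusted p values of 0.057 to 0.384. DESeq2 called 6 described genes for sex, namely Kcna4, Kcna5, Kcnf1, Kcnh6, Kcnip4 and Kcnj9, against 1.9% of all genes.

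At an unadjusted p under 0.05 there were 15 of 55 genes (27.3%), against 9.09% of all genes tested. Of these 9 were higher in females, as 4.93% of all genes were, and 6 lower, as 4.16% were. In 9 genes both females exceeded every male, as in 5.7% of all genes tested, and in 5 both lay below every male, as in 4.76%. Among the higher 9 were Kcnd3, Kcnb2, Kcnj2, Kcnj9, Kcnh7, Kcnh6 and Kcnip4, and the lower 5 were Kcnh2, Kcna5, Kcnmb4, Kcnab1 and Kcna4. The antisense gene Kcnmb4os2, which shares exon bases with Kcnmb4, also had both females below every male. Its log2 difference, female minus male, was -0.68, against -0.42 for Kcnmb4. The part of its reads in the level of Kcnmb4 was not tested.

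Kcna4, an A-type pore of the shaker family, was the member lowest in females relative to males on the log2 scale. It had 4.20 and 5.54 CPM in the control and treated female, against 11.6, 6.84 and 11.6 CPM in control males and 10.2, 13.2 and 14.6 CPM in treated males. Both females lay below the lowest male. Its log2 difference was -1.22 ± 0.23 (SE; edgeR adjusted p = 0.0629), and it passed without isotype control replicate 3, its lowest male (-1.31, edgeR adjusted p = 0.0124). Kcna5, whose libraries are given above, had a log2 difference of -0.61 ± 0.13 (SE; edgeR adjusted p = 0.0775).

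Kcnh6, another ether-a-go-go related pore, had 4.70 and 5.82 CPM in the females and 2.28 to 3.37 CPM in the males, with a log2 difference of 0.87 ± 0.19 (SE; edgeR adjusted p = 0.0871). Kcnj9 had 6.55 and 9.35 CPM in the females and 3.87 to 5.72 CPM in the males, with a log2 difference of 0.74 ± 0.19 (SE; edgeR adjusted p = 0.166). In both the females stood above all males. Kcnf1, with a log2 difference of 1.29 ± 0.32 (SE; edgeR adjusted p = 0.16), overlapped: its control female, at 2.43 CPM, lay just below the highest male, at 2.46 CPM. Without the treated female the log2 difference was 0.72 for Kcnf1 and 0.48 for Kcnj9, while it was 0.84 for Kcnh6, -0.66 for Kcna5 and -1.25 for Kcna4; none of these 5 was then called.

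**Figure D5:**
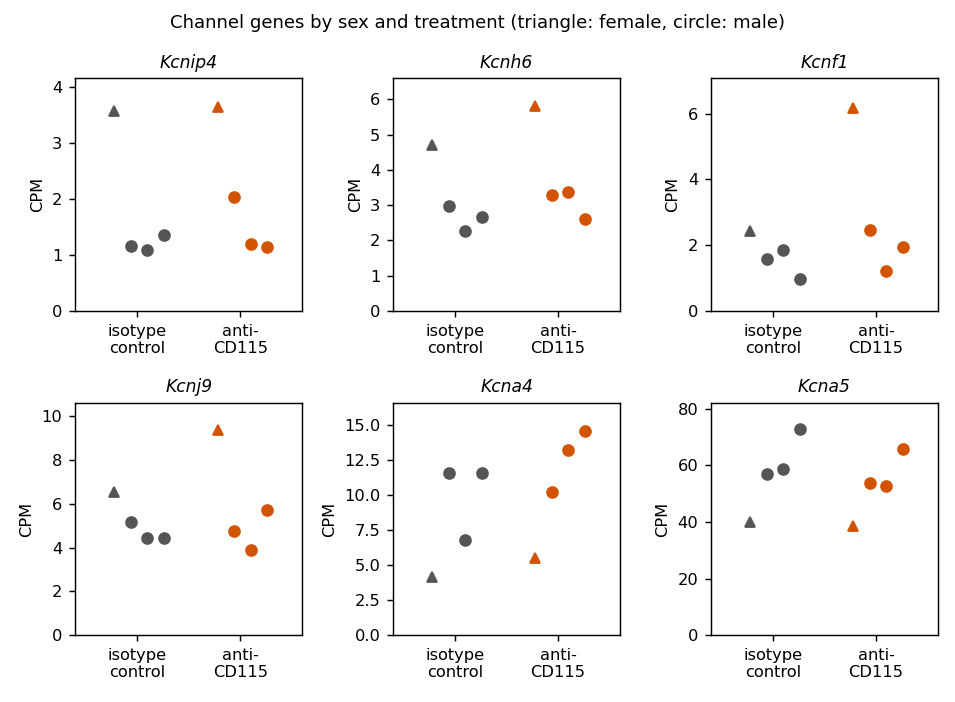
TMM-normalised CPM per library of 6 channel genes by treatment group, with triangles for females and circles for males. Females stand above the males of their own group in Kcnip4, Kcnh6, Kcnf1 and Kcnj9 and below them in Kcna4 and Kcna5.

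Hormone cell markers also moved with sex. The 3 lactotroph markers summed to 84066 and 49610 CPM in the control and treated female and to 17441 to 26693 CPM in males. Of these 3, 1, Prl, was higher in females (edgeR adjusted p = 0.0047). The other 2 had log2 differences, female minus male, below 0, and 1 of them had both females below every male. The 4 gonadotroph markers summed to 1132 and 643 CPM in the females and to 1850 to 2428 CPM in males. Of these 4, 1, Fshb, was lower in females (edgeR adjusted p = 0.00192), and 2 lay above 0 and 2 below. All 3 somatotroph markers lay below 0, 2 of them with both females below every male, and 0 were called. No marker of these lists was at 0. Their part in the sex differences of the channel genes was not tested, and the treated female is also the library with forebrain transcripts. For the difference of the treatment effect between sexes, edgeR called 0 of the 55 genes (smallest adjusted p 0.445), while 0.0395% of all genes tested were called. At an unadjusted p under 0.05 there were 7 of the 55, against 3.2% of all genes.

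Genes that pair with these channels under other names were read from the same fit. The list held 14 genes, among them the sulfonylurea receptors Abcc8 and Abcc9, the Kcnd partners Dpp6 and Dpp10, and pacemaker channels. By edgeR 0 of the 14 were called for treatment, against 0.869% of all genes tested. An unadjusted p under 0.05 was found for 3 (21.4%), against 10.3% of all genes, and 10 (71.4%) lay above 0, against 50.9%. Their median log2 change was 0.13. Their summed level was 269 to 292 CPM in the controls and 306 to 340 CPM in the treated libraries. Dpp10, which speeds the A-type current, had 16.3, 13.0, 12.9 and 16.4 CPM in the controls and 26.7, 21.5, 17.4 and 25.1 CPM in the treated libraries. Its groups did not overlap, and its log2 change was 0.62 ± 0.13 (SE; edgeR adjusted p = 0.0685). DESeq2 called it (adjusted p = 0.00208), and edgeR did so without isotype control replicate 4 or without anti-CD115 replicate 3 (adjusted p = 0.0496 and 0.0379). Abcc9, also a marker of mural cells, did not overlap either, with a log2 change of 0.48 ± 0.15 (SE; edgeR adjusted p = 0.30). These were 2 of the 14 (14.3%) with every treated library above every control, as 2.47% of all genes tested had. The reverse held for 0, as for 3.29% of all genes. Anti-CD115 replicate 1, the library with forebrain transcripts, was the highest of the 8 for 7 of the 14 (50%), against 13.1% of all genes.

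The 1 CPM limit ran through a continuous range of levels. Just inside it, by raw CPM, were Kcnh5 at 1.03, Kcnt2 at 1.09 and Kcnj12 at 1.11, and just outside were Kcns3 at 0.964, Kcng2 at 0.942 and Kcns1 at 0.891. Kcnt2, a sodium-activated pore, had 1.26, 1.08, 1.21 and 0.838 CPM in the controls and 1.44, 1.68, 0.616 and 1.05 CPM in the treated libraries, which enclosed the controls. The silent subunits outside the limit also overlapped between groups. Kcns3 had 0.629 to 1.3 CPM in the controls and 0.525 to 1.14 CPM in the treated libraries, Kcng2 had 0.630 to 1.15 and 0.840 to 2.03 CPM, and Kcns1 had 0.699 to 1.04 and 0.357 to 1.58 CPM. A limit of 0.5 CPM would have taken in 64 genes and one of 2 CPM 44.

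Of the 24 genes below the limit, 12 passed the filter on low counts, and 0 of these were called for treatment by edgeR, against 0.869% of all genes tested. An unadjusted p under 0.05 was found for 3 of the 12 (25%), Kcna1, Kcng2 and Kcnj4, against 10.3% of all genes; without anti-CD115 replicate 2 there was 1 such gene. Kcna1, a low-threshold pore of the shaker family, had 0.923, 0.664, 1.01 and 1.01 CPM in the controls and 2.07, 1.32, 1.38 and 1.68 CPM in the treated libraries. Every treated library lay above every control, and the log2 change was 0.81 ± 0.24 (SE; edgeR, unadjusted p = 0.00659, adjusted p = 0.264). Kcnj4, an inward rectifier known from the forebrain, had 0.630, 0.804, 0.592 and 0.663 CPM in the controls and 6.34, 1.36, 0.851 and 0.504 CPM in the treated libraries. Its treated group was high in replicate 1 and overlapped the controls otherwise. The log2 change of 1.19 became 0.41 without that library, as it was in males alone. Kcnip1, another Kcnd partner, had 2.10 and 1.54 CPM in the control and treated female and 0.244 to 0.792 CPM in the males, a log2 difference between sexes of 1.79 (edgeR adjusted p = 0.0775).

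The 12 genes that were not tested had a median of 0 to 10 counts per library, which in 9 of them was at most 5. Kcnv1, a silent subunit known from the brain, had no read in 6 of the 8 libraries, 0.118 CPM in control replicate 3 and 2.31 CPM in anti-CD115 replicate 1. Kcnj16, an inward rectifier that pairs with Kcnj10, had 0.0350 to 0.118 CPM in the controls and 1.37, 0.0357, 0.440 and 0.0420 CPM in the treated libraries. Kcnj13 had 0.947 CPM in control replicate 3 and at most 0.168 CPM elsewhere, with 49.1% of its exon bases shared with Gigyf2 on the opposite strand. The named genes of these last paragraphs other than Kcns1, Kcns3, Kcng2, Kcnt2 and those of the list of partners were chosen after their values had been seen.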

How the data were processed

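Per the labels' protocols, libraries were made from polyadenylated RNA of 8 whole pituitaries with a stranded kit. The build was GRCm38 and the tools featureCounts 1.5.0-p3, HISAT2 2.0.5 and StringTie 1.3.3b, per the submitters' processing notes; whether reads were counted by strand and how reads shared between genes were treated are not given in the sources used here. The deposited counts are whole numbers per gene without normalisation, and the deposited FPKM values divide out library size and gene length; the latter were used to compare genes. Coding sequences and exon overlaps came from GENCODE M21, in which all 79 members have the coordinates of the count table.

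Counts were tested with edgeR 4.0.16 in R 4.3.3 (filterByExpr on treatment, TMM, quasi-likelihood test on all 8 libraries with sex and treatment as terms, p-values adjusted by Benjamini and Hochberg over 17723 genes, threshold 0.05), after the code was tested on simulated data. Standard errors come from the F statistic and 95% intervals from its degrees of freedom. The single female of each group was taken to have the same spread as the males. Nothing given says whether replicates came from separate litters, so p-values measure the spread between these samples. Floors cover counting error only. Alternatives used DESeq2 1.42.0 and limma 3.58.1. The members, the partner and marker lists and the rule for naming genes (the 10 with the highest control FPKM, called genes, the 5 smallest p-values and the 3 largest changes per direction, 3 on each side of 1 CPM, and 5 channels known in macrophages or glia) were chosen with earlier results of these data known. The labels do not give the replicate numbers as pairs, so they were not used as pairs. Deviations from the group mean had correlations of 0.337, -0.0623, 0.045 and 0.233 between same-numbered libraries, for replicates 1 to 4. Libraries of different numbers had -0.307 to 0.178, so replicates 1 and 4 were the highest. Sex was not taken out of these deviations, and replicate 1 is the female of each group. These values do not decide whether the numbers are pairs. Results for some genes are not reported here.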

Additional observations from a re-analysis of the deposited data

Results flagged for a closer look

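In these cases 1 of the 4 libraries of a group stood apart from the other 3, with a gap to the nearest that exceeded the 95% critical value of Dixon's test. Of 110 groups of described genes 8 were marked in this way when all their libraries were read by CPM after TMM scaling, a rule that marks about 1 in 20 groups by chance; 5 of them are given here. Isotype control replicate 3 was the low library for Kcnj3 at 24.7 CPM, Kcnmb2 at 21.6 CPM and Kcna3 at 4.14 CPM. The control female was low for Kcng4 at 2.14 CPM and high for Kcnip4 at 3.57 CPM. Among genes below 1 CPM, anti-CD115 replicate 1 was high for Kcns1 at 1.58 CPM, Kcnj4 at 6.34 CPM and Kcnv1 at 2.31 CPM. Isotype control replicate 3 was marked for Kcnv1 at 0.118 CPM, the only control with a read. Where the other libraries of a group have no read, as for Kcnv1 in both groups, the rule marks any library with reads. The value of 0.118 CPM lay within the range of the floor, 0.0828 to 0.129 CPM.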

How the results depend on the processing

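No alternative called a described potassium channel gene for treatment. Over all genes, the treatment count of 154 became 268 with DESeq2 and 487 with no filter on low counts, and 89 to 120 with 1 library left out. For sex the count of 87 became 336 with DESeq2, 601 with no filter, 45 and 43 with limma on log2(FPKM + 0.1) and log2(FPKM + 1), and 46 to 92 with 1 library left out. The number of described genes called for sex, 1, became 6 with DESeq2, 8 with no filter, 0 on log2(FPKM + 0.1) and 0 to 1 with 1 library left out; without isotype control replicate 3 the called gene was Kcna4. With the replicate block, whose numbers the labels do not give as pairs, 118 genes, 0 described channel genes and Dpp10 (adjusted p = 0.0309) were called for treatment. In males alone the treatment change turned its sign for Kcnab2 (-0.046) and Kcnh3 (-0.088). With 1 library left out, the log2 treatment change ran from -0.15 to 0.0020 for Kcnip3, -0.16 to 0.13 for Kcnj3, -0.25 to 0.066 for Kcnn4, -0.21 to 0.24 for Kcna3, -0.047 to 0.38 for Kcnab2 and -0.090 to 0.29 for Kcnh3, and none of these genes was called. The cause of these differences was not tested.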
